A study of Sus scrofa with 6 samples.

Results

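Cytosolic ribosomal protein genes were followed in porcine midbrain-like organoids (pMLOs) on day 11, 28 and 45 of culture (D11, D28 and D45). The members were the 55 of 30477 genes whose symbol in the deposited gene tables starts with RPL or RPS and a digit, or is RPSA or RPLP0 to RPLP2, and the 9 RPS6K kinase genes were left out. Of these, 22 code for large subunit proteins, 2 for proteins of the large subunit stalk (RPLP0 and RPLP2), 22 for small subunit proteins and 7 for paralogs, and 2 are readthrough loci that join a ribosomal protein gene to its neighbour. The members hold 46 of the 77 standard subunit genes searched for by name. A further 8 ribosomal protein genes (RPLP1, RPL7A, RPL14, RPL23A, RPS2, RPS7, RPS24 and RPS27A) carried no symbol in the files and were named only through a table of pig gene names, so a share given here covers only some of the ribosomal protein mRNA.

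All organoids came from 1 embryonic stem cell line derived from in vitro fertilised blastocysts, IVF_1_ pESC_FIW, which had been kept on mouse embryonic fibroblasts that were depleted before aggregation. Before D11 the aggregates had received SB431542, Noggin, SHH-C24II and CHIR99021, then FGF8, and then FGF8 with BDNF and ascorbic acid. The D28 and D45 organoids had also been embedded in Matrigel and cultured with BDNF, GDNF, ascorbic acid, db-cAMP and DAPT. Each day had 2 libraries, replicates A and B, made with a droplet method that tags each mRNA it captures, at the 3′ end, with a molecular barcode (UMI). The paper calls them biological duplicates, and since nothing says that they came from separate cultures, p-values measure only the spread between these libraries.

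A ribosome is built from a small subunit, which reads the mRNA, and a large subunit, which joins amino acids. Each protein of a subunit is needed in about the same amount, and cells that grow and divide spend much of their transcription on these mRNAs. Many of them start with a C and a run of pyrimidines, the 5′ terminal oligopyrimidine (TOP) tract, through which mTOR signalling and the protein LARP1 set their translation and stability. In the developing brain, progenitors make many ribosomes, and the demand changes as neurons stop dividing.

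The starts of RefSeq mRNAs (Sscrofa11.1, the build of the files) could be read for 53 of the 55 members, 36 of them curated transcripts and 17 models. They are shown because many ribosomal protein mRNAs are known for this tract, which the choice of members did not use. The tract was searched for on the transcript strand as a C at the first base and C or T at each of the next 4 bases. It was found at 13 of 53 members (24.5%) and at 586 of 20647 RefSeq genes with an mRNA (2.84%). A start that lies a few bases away from the true one misses it, and no match says only that these letters are not at the annotated start. Each line below gives 15 bases before the start and 15 from it on, with the first 5 bases of the mRNA in capitals, for 6 members with the tract and then for 3 without it that the results return to.
RPL10 (chrX:124927234-124927263, + strand): caggcgtgggagcgcCTCTTttccttcggc
RPLP0 (chr14:40223929-40223958, - strand): cggcgtacagccctcCTCTCgccaggcgtc
RPL6 (chr14:39302432-39302461, + strand): gctgaggccttagttCTCTTtcccatcttg
RPL7 (chr4:62602415-62602444, + strand): cgcatgcgctaacttCCTCTttcccggctg
RPL23 (chr12:23279950-23279979, + strand): ctttgttcttacttcCTTTTcgtccttgtc
RPS20 (chr4:75762194-75762223, + strand): aggcctcacgccttcCTCTTtgaagaagac
RPL3 (chr5:8922682-8922711, + strand): gccagtctgggatttATATAtcgcacgcct
RPS18 (chr7:29638841-29638870, + strand): cactggaggcctacaCGCCGccgcccgcgc
RPS28 (chr2:70954758-70954787, - strand): ggcacgtgactcctcTCCGCcagaccaccg

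Cells were kept if 200 to 7000 genes were detected and at most 10% of UMIs were mitochondrial, and 102940 of 104820 barcodes remained, 13870 to 21553 per library. The libraries held 106805311 to 180034791 UMIs in kept cells, and the median per cell ranged from 2300.5 to 10757. Between 6.63% and 33.0% of kept cells had under 1000 UMIs. Any 2 libraries shared 54 to 111 cell barcodes, at most 0.637% of the smaller one. The labels call every sample midbrain dopaminergic neurons, but each library was a mixture. TH, which makes L-DOPA, was at 11.5 to 55.1 CPM (its UMIs per 1000000 UMIs of the library) and SLC6A3, the dopamine transporter, at 0.294 to 2.56 CPM. DDC was at 16.1 to 70.7 CPM, NR4A2 at 42.3 to 85.6, LMX1A at 24.1 to 114 and FOXA2 at 4.55 to 101. The summed CPM of 8 neuron markers was 1457 to 3975, of 5 mitotic markers 177 to 1047 and of 4 fibroblast markers 9.83 to 1301. These sums cannot be set directly against the values of single genes.

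Ribosomal protein mRNA took its highest share of the UMIs on D11. On D11 the members held 11.3% (replicate A) and 12.1% (replicate B) of UMIs. The D28 libraries had 8.56% and 6.33%, and the D45 libraries 5.90% and 7.05%. Both D11 libraries lay above all 4 later ones, whereas D28 and D45 overlapped, since D28 replicate B was below D45 replicate B. The mean share on D11 was 11.7% ± 0.590 (SD, n = 2), against 7.44% ± 1.58 on D28 and 6.47% ± 0.814 on D45, which made D11 1.57 times D28 and 1.80 times D45. The 95% Wilson interval of a library's share was at most 0.00531 percentage points to either side, which covers counting error only and is far smaller than the difference between replicates. No test of the share was made.

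D11 was also highest when each cell counted equally, but D28 and D45 then did not overlap. The median share over cells was 11.07% and 12.01% for D11, 7.44% and 5.46% for D28, and 4.03% and 4.95% for D45. The 32 genes with RPL symbols and the 23 with RPS symbols, paralogs and readthrough loci included, both had their highest share on D11, with 6.16% ± 0.323 and 5.52% ± 0.267 of UMIs on D11 against 3.52% ± 0.379 and 2.96% ± 0.435 on D45 (SD, n = 2). The ratio of RPL to RPS share was between 1.11 and 1.23 in the 6 libraries. The 8 genes named only through the reference table had 2.87% ± 0.172 of UMIs on D11, 1.90% ± 0.463 on D28 and 1.58% ± 0.183 on D45. The mitochondrial share was 1.77% and 1.86% on D11, 1.83% in both D28 libraries, and 2.08% and 2.33% on D45. Median UMIs per cell were 10757 and 8845 for D11, 5505 and 8130 for D28, and 2300.5 and 4341 for D45. The share at like depth is given further on, and the part of the mitochondrial share was not tested. In sums over whole organoids, fewer cells of a type and less RNA per cell cannot be told apart.

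**Figure D1:**
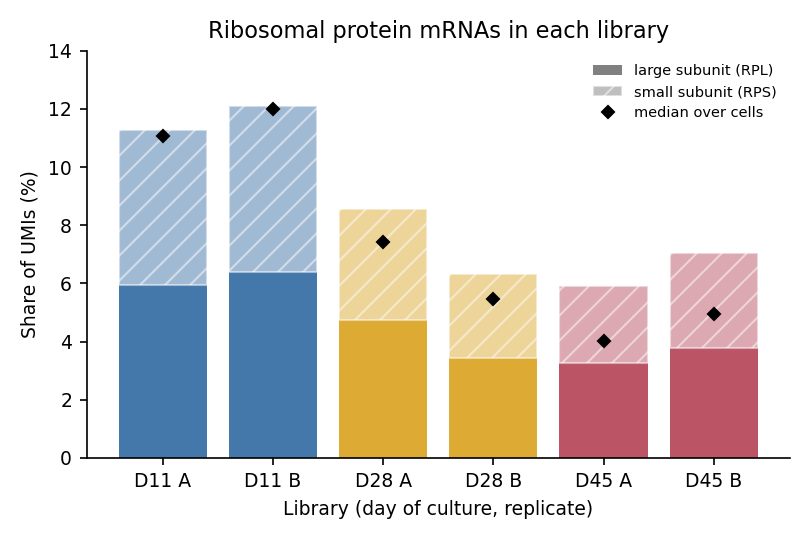
Share of UMIs (percent) in the members for each of the 6 libraries, as bars split into genes with RPL symbols (solid) and RPS symbols (hatched), with a diamond for the median share over single cells. The D11 bars reach 11.3% and 12.1%, and the 4 later bars end between 5.90% and 8.56%.

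Tested gene by gene, most members fell from D11 to D45. In edgeR's quasi-likelihood test across all 22192 genes that passed the filter on low counts, 42 of the 54 tested members were lower on D45 (Benjamini-Hochberg adjusted p under 0.05) and none was higher, where 17.4% of all tested genes were lower and 17.3% higher. At an unadjusted p under 0.05 none was higher either, nor was any by DESeq2, which found 47 lower. All 54 log2 fold changes were negative, from -2.01 to -0.38 with a median of -1.23, against a median of -0.01 over all genes tested. In 50 of the 54 members both D45 libraries lay below both D11 libraries, as they did in 23.7% of all genes. The makeup of the organoids moved with the day: 5 mitotic markers summed to 941 and 1047 CPM on D11 and to 177 and 211 CPM on D45, 8 neuron markers to 1457 and 1630 CPM and then to 2397 and 2459 CPM, 5 astrocyte markers to 36.9 and 40.4 CPM and then to 426 and 466 CPM, and none of these genes was at 0. From D11 to D45, 5 floor plate markers went from 1860 and 1712 CPM to 222 and 309 CPM, 4 oligodendrocyte lineage markers from 3.79 and 3.00 CPM to 534 and 401 CPM, and 4 fibroblast markers from 9.83 and 14.4 CPM to 423 and 1301 CPM. Their part in the result was not tested. The member not tested, RPL10L, a copy of RPL10 known from testis, had 41 UMIs in all.

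The count fell when a D11 or D45 library was left out and rose without a D28 library, among the members and among all genes tested. Without D11 replicate A, D11 replicate B, D45 replicate A or D45 replicate B, the median of the members was -1.28, -1.10, -1.08 and -1.40. The remaining library of that day was assumed to vary like the others. When D28 replicate A or B was left out the median was -1.17 and -1.23. The median of all genes was between -0.04 and 0.06 in these fits. Scaling by total UMIs in place of TMM factors gave 31 lower and none higher, with 5855 genes higher and 1994 lower in place of 3830 and 3857, since it moved the median of all genes to 0.40 and that of the members to -0.82. D28 and D45 were both set against the same D11 libraries, so the 2 comparisons are not independent.

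Of the large subunit genes, 18 of 22 fell by D45. The largest change was that of RPL10A, which codes for the protein of the L1 stalk at the exit site. It was at 26.1 and 29.0 CPM on D11, 12.99 and 11.4 CPM on D28, and 8.26 and 9.82 CPM on D45. The days did not overlap, and the log2 fold change was -2.01 ± 0.23 (SE, adjusted p = 0.00112), from only 14400 UMIs in all. RPL3, whose protein reaches into the centre where peptide bonds form, had 1692 and 1810 CPM on D11, 578 and 657 CPM on D28, and 541 and 715 CPM on D45. Its D28 libraries lay within the range of D45, with changes of -1.77 ± 0.26 for D28 (adjusted p = 0.00494) and -1.88 ± 0.26 for D45 (adjusted p = 0.00234).

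RPL5 and RPL11, which form a particle with 5S rRNA that can also bind MDM2 and so stabilise p53, fell too. RPL5 was at 2930 and 3125 CPM on D11 and at 1319 and 1372 CPM on D45 (log2 fold change -1.58 ± 0.29, adjusted p = 0.00702). For RPL11 the D11 libraries had 2950 and 3302 CPM and the D45 libraries 1616 and 1792 CPM, a log2 change of -1.28 ± 0.33 (adjusted p = 0.0238). The stalk proteins RPLP0 and RPLP2, which recruit elongation factors, changed by -1.20 ± 0.37 (adjusted p = 0.0441) and -1.31 ± 0.29 (adjusted p = 0.0138). RPLP0 had 3017 CPM in D28 replicate A, within the range of D11 (2886 and 3151 CPM), but 1831 CPM in replicate B, and its change on D28 did not pass (-0.54 ± 0.37, adjusted p = 0.322). RPLP2 had fallen by then (-1.28 ± 0.29, adjusted p = 0.0227).

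Among the small subunit genes, 17 of 22 fell by D45. RPS9, a protein that binds early in assembly and lies at the mRNA entry channel, dropped from 1569 and 1770 CPM on D11 to 544 and 717 CPM on D45 (log2 fold change -1.81 ± 0.34, adjusted p = 0.00707). RPS6, the substrate of the S6 kinases downstream of mTOR, was at 3003 and 2995 CPM on D11, 1093 and 1469 CPM on D28, and 1147 and 1348 CPM on D45 (-1.67 ± 0.26 for D45, adjusted p = 0.00383). As with RPL3, the D28 and D45 libraries overlapped. RPSA, which also occurs outside the ribosome as a laminin receptor, changed by -1.38 ± 0.26 (adjusted p = 0.00782).

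RPL10 and RPS20, both among the members with the most UMIs, did not pass in spite of their depth. RPL10, which joins the large subunit last and prepares it for joining the small one, had a change of -0.92 ± 0.39 (adjusted p = 0.11), and RPS20, of the head of the small subunit, -1.26 ± 0.41 (adjusted p = 0.0503). Both were well above the D45 libraries in D28 replicate A and close to them in D28 replicate B, as RPL10 shows with 4862 and 3033 CPM.

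**Figure D2:**
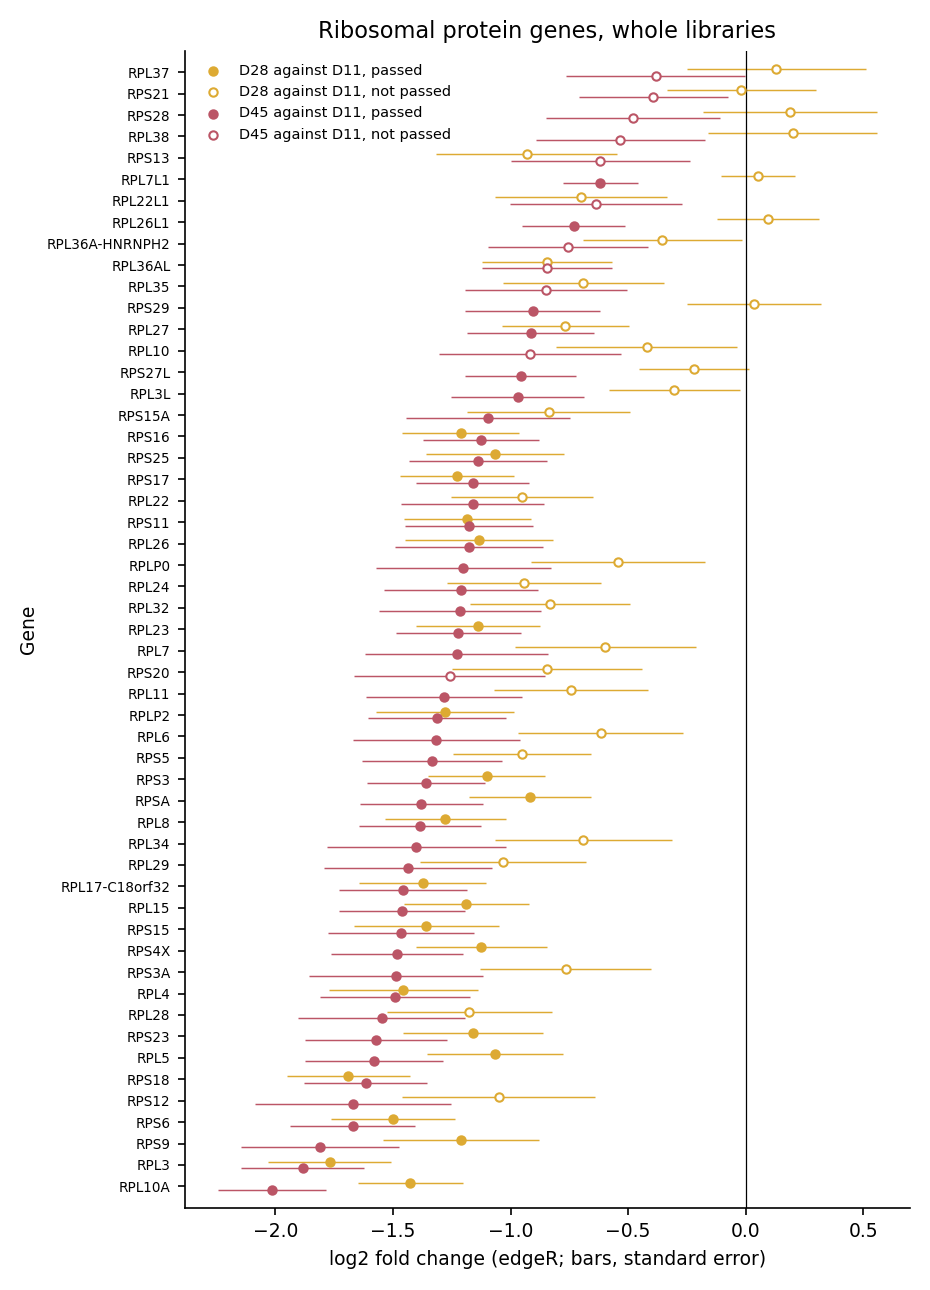
Log2 fold change of 53 of the 54 tested members, with bars for the standard error, for D28 (yellow) and D45 (red) against D11, ordered by the D45 value, with filled points for an edgeR adjusted p under 0.05. All D45 points lie below 0, between -2.01 and -0.38, while those of D28 reach from -1.77 to 0.20.

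On D28 fewer members passed than on D45. Against D11, 22 of 54 members were lower and none higher (10.6% and 12.5% of all genes tested), 8 of 22 large subunit, 1 of 2 stalk, 12 of 22 small subunit genes, none of 6 paralogs and 1 of 2 readthrough loci. No member was higher at an unadjusted p under 0.05 or by DESeq2, which found 32 lower. The median log2 fold change was -0.94 (0.03 over all genes). From D11 to D28, mitotic markers went from 1047 and 941 CPM to 254 and 179 CPM. Neuron markers went from 1457 and 1630 CPM to 3975 and 2787 CPM, and floor plate markers from 1860 and 1712 CPM to 713 and 1232 CPM. The part of these markers was not tested. After RPL3 the largest falls were those of RPS18, a protein of the small subunit head, from 2791 and 2904 CPM on D11 to 989 and 1132 CPM on D28 (-1.69 ± 0.26, adjusted p = 0.00592), and RPS6 (-1.50 ± 0.26, adjusted p = 0.00899).

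The D28 libraries differed from each other, and the count moved with every library left out, among the members and among all genes tested. In CPM, 42 of the 55 members were higher in D28 replicate A than in replicate B, and 10 were higher in replicate A than in both D11 libraries. How many of all genes did so was not counted, so these counts are not shown to be particular to the members. Without replicate A of D28 the median of the members was -1.31 on D28, beside -1.17 on D45 in the same fit. Without replicate B it was -0.64 on D28, with values up to 0.64, beside -1.23 on D45. Scaling by total UMIs gave 21 lower, with 4296 genes higher and 1268 lower in place of 2784 and 2347 and the median of all genes at 0.30. Without D11 replicate A, D11 replicate B, D45 replicate A or D45 replicate B the median of the members was -0.999, -0.800, -0.951 and -0.945. The median of all genes in these fits was 0.069, 0.092, 0.038 and 0.038. Summed fibroblast markers were at 916 CPM in D28 replicate A and 109 CPM in replicate B, summed floor plate markers at 713 and 1232 CPM, and the part of either in the difference was not tested.

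From D28 to D45, 1 of 54 members was lower and none was higher (4.93% and 4.47% of all genes tested), at an unadjusted p under 0.05 the counts were 5 and 0, and DESeq2 gave 4 and 0. The member was RPL7L1, a nucleolar relative of RPL7 that acts in ribosome assembly, with 103 and 114 CPM on D28 and 74.4 and 76.5 CPM on D45 (log2 fold change -0.67 ± 0.16, adjusted p = 0.0461). The median of the members was -0.38, against -0.03 over all genes, but it was 0.04 without D28 replicate A and -0.64 without D28 replicate B. It was -0.35 without either D11 library, -0.17 without D45 replicate A and -0.55 without D45 replicate B. The count of called members changed when a library was left out, and so did the count over all genes tested.

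Subunit genes with the shortest coding sequences had the smallest changes on D28. RPS28, RPL38, RPS21, RPS29 and RPL37, the 5 subunit members whose RefSeq coding sequence is under 300 bases, had log2 fold changes of -0.02 to 0.20 on D28, and none passed. The other 41 subunit members had a median of -1.07. RPS28, a protein at the mRNA exit channel, was at 1178 and 1311 CPM on D11, 2106 and 1208 CPM on D28, and 1095 and 1274 CPM on D45. RPL38, known from mice for its part in the translation of Hox mRNAs, had 783 and 819 CPM, then 1380 and 765 CPM, and then 750 and 722 CPM. Both were at about the D11 level in D28 replicate B and well above it in replicate A.

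RPL37, which binds zinc in the large subunit, was at 1679 and 1761 CPM on D11, 2806 and 1590 CPM on D28, and 1576 and 1918 CPM on D45. On D45 the change was -0.38 ± 0.38 for RPL37 (adjusted p = 0.474), -0.39 ± 0.32 for RPS21 (adjusted p = 0.374), -0.48 ± 0.37 for RPS28 (adjusted p = 0.353) and -0.53 ± 0.36 for RPL38 (adjusted p = 0.289). RPS29, also a zinc-binding protein, did pass (-0.91 ± 0.29, adjusted p = 0.0472). The median of the 5 was -0.48, against -1.32 for the other 41. The paralog RPS27L, with a coding sequence of 255 bases, is not among the 5 and had -0.22 on D28 and -0.96 on D45, where it passed (adjusted p = 0.0201).

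Across the 46 subunit members Spearman's rho between coding length and the log2 fold change was -0.32 for D28 and -0.56 for D45, and with the length of the whole mRNA it was -0.15 and -0.41. These describe genes measured in the same 6 libraries. Among 13259 other tested genes rho was -0.13 for D28 and 0.12 for D45, and the 159 of them with a coding sequence under 300 bases had medians of 0.19 and -0.39, against -0.01 and -0.08 for the 13100 longer ones. Coding length and its limit were chosen after the values had been seen. For the difference between STMN2-detected and undetected cells, described further on, rho was -0.35, and the 5 genes had values of -0.37 to -0.27.

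**Figure D3:**
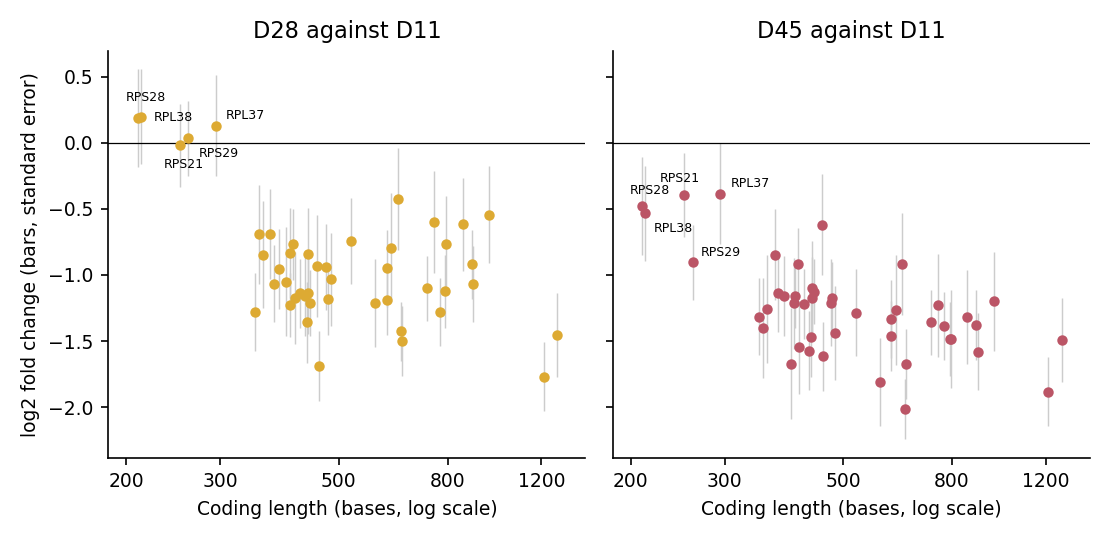
Log2 fold change against D11 (bars, standard error) over the RefSeq coding length in bases, on a log axis, for the 46 subunit and stalk members, with D28 on the left and D45 on the right. The 5 labelled genes under 300 bases lie between -0.02 and 0.20 on D28, above all others, and between -0.91 and -0.38 on D45.

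Members with the TOP tract at the annotated start changed about as much as those without it. The median log2 fold change of the 13 was -0.85 on D28 and -1.23 on D45, against -0.94 and -1.21 for the other 39 tested members with a RefSeq start. On D28, 5 of 13 with the tract and 16 of 39 without it were lower, and on D45 10 of 13 and 31 of 39. Of all genes tested, 10.6% were lower on D28 and 17.4% on D45. Of the members whose starts are printed above, RPL10, RPL6, RPL7, RPLP0 and RPS20, which have the tract, did not pass on D28, while RPL23 did (-1.14 ± 0.26, adjusted p = 0.0236), as did RPL3 and RPS18, whose windows lack it. RPS28, which lacks the tract at the annotated start but has a run of C and T across that start, did not pass (0.19, adjusted p = 0.742). RPL6 and RPL23 were picked after their values had been seen.

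Paralogs had few UMIs beside the genes they resemble. Of the 6 tested, 4 were lower on D45: RPL7L1 (log2 fold change -0.62 ± 0.16, adjusted p = 0.0234), RPL26L1 (-0.73 ± 0.22, adjusted p = 0.0382), RPS27L (-0.96 ± 0.24, adjusted p = 0.0201) and RPL3L (-0.97 ± 0.28, adjusted p = 0.0353). RPL3L, a paralog of striated muscle, had only 840 UMIs in all, at 0.727 to 1.26 CPM. RPS27L, a p53 target, was at 167 and 182 CPM on D11, 188 and 169 CPM on D28, and 103 and 135 CPM on D45. Its D11 and D28 libraries overlapped. RPL22L1, whose protein can stand in for that of RPL22, was at 184 and 193 CPM on D11 and at 143 and 178 CPM on D45 (-0.64 ± 0.37, adjusted p = 0.22), while RPL22 passed (-1.16 ± 0.30, adjusted p = 0.0247). For RPL36AL the change was -0.84 ± 0.28 (adjusted p = 0.0524).

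Of the genes that other paralogs resemble, RPL7 changed by -1.23 ± 0.39 (adjusted p = 0.0468) and RPL26 by -1.18 ± 0.31 (adjusted p = 0.0264), but the difference between a paralog and its partner was not tested. Reads that match near-identical copies, processed copies elsewhere in the genome or the joined genes RPL17-C18orf32 and RPL36A-HNRNPH2 can be assigned to the wrong gene, so the values of these 9 loci are uncertain. The other members were not checked for this. Among them RPL10A had 14400 UMIs in all, where RPS13, the subunit member next above it, had 551091.

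The share also varied with the depth of the cell. In all 6 libraries it was lowest in cells with 1000 to under 2000 UMIs, at 5.66% and 7.59% for D11, 4.88% and 3.02% for D28, and 3.22% and 3.84% for D45. It was higher on both sides of this bin, and within a library the highest bin had 1.68 to 2.29 times the share of the lowest. On D28 and D45 the share was highest in cells with 16000 UMIs or more, at 6.42% to 9.12%. On D11 it peaked at 12.02% in cells with 4000 to under 8000 UMIs in replicate A and at 12.8% in cells with 8000 to under 16000 UMIs in replicate B, and fell to 10.2% and 11.09% above that.

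D11 had the highest share at every depth, while D28 and D45 kept no fixed order. D28 replicate B lay below both D45 libraries at 1000 to under 2000 UMIs (3.02% against 3.22% and 3.84%). The same held at 4000 to under 8000 UMIs (5.58% against 5.99% and 6.06%). The mean of the 2 D11 libraries exceeded those of D28 and D45 in each of the 6 bins, for example with 11.4% ± 0.624 against 5.00% ± 0.804 and 3.77% ± 0.468 (SD, n = 2) in cells with 2000 to under 4000 UMIs. In proportion the gap was smallest at 16000 UMIs or more, with 10.7% ± 0.606, 8.02% ± 1.57 and 7.06% ± 0.898. Thinning each cell to 1000 UMIs, with shallower cells left out, gave 5.62% on D45 in place of 6.47%. In the 2 bins under 2000 UMIs, 21.0% to 66.7% of cells had a UMI of STMN2, a microtubule regulator of neurons.

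**Figure D4:**
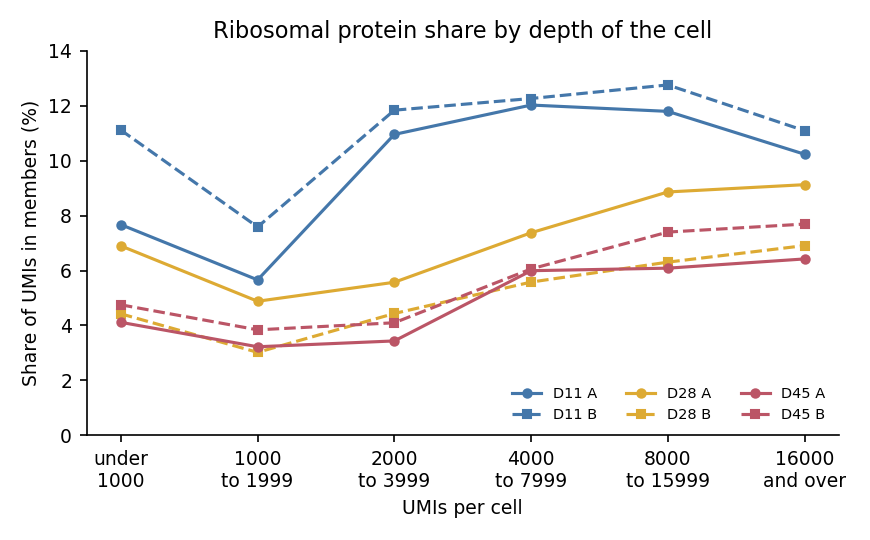
Share of UMIs in the members (percent) in cells grouped by UMIs per cell, 1 line for each of the 6 libraries (solid for replicate A, dashed for replicate B). Every line has its lowest point at 1000 to under 2000 UMIs, and the D11 lines rise to 12.02% and 12.8% before they fall in the deepest cells.

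Cells were next classed by whether they had a UMI of STMN2, of TOP2A (a topoisomerase of dividing cells) or of AQP4 (the water channel of astrocytes), with equal numbers of detected and undetected cells drawn at matched depth within each library. STMN2 was detected in 26.8% and 33.4% of cells on D11 and in 68.5% to 74.8% later. TOP2A was detected in 33.1% and 29.6% of cells on D11 and in 6.19% to 8.69% later. AQP4 was detected in 6 and 2 cells of the D11 libraries, which were left out for it, in 127 and 63 of D28 and in 1756 and 2285 of D45.

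A single UMI does not mark a cell type here. Of cells with at least 3 AQP4 UMIs, 65.4% (D28 replicate A, 26 cells), 65.2% and 67.2% (D45, 483 and 664 cells) also had a STMN2 UMI, at median depths of 19162.5, 17249 and 16409.5 UMIs. That is no more than in all cells of these libraries, 74.8%, 72.0% and 68.5%, at median depths of 5505, 2300.5 and 4341 UMIs. A single UMI of STMN2 thus did not set these cells apart, and where it came from was not tested. Cells with at least 3 TOP2A UMIs, at median depths of 16205.5 to 19748 UMIs, had a STMN2 UMI in 22.7% and 30.7% of D11, 66.5% and 64.8% of D28 and 76.6% and 67.4% of D45, against 26.8%, 33.4%, 74.8%, 69.6%, 72.0% and 68.5% of all cells, lower than in all cells in 5 of 6 libraries. TOP2A was detected in 5.01% to 22.2% of cells with at least 3 STMN2 UMIs and AQP4 in 0.285% to 10.4% of those on D28 and D45. The summed CPM of the other 7 neuron markers was nevertheless higher in the detected class in each library, 2191 to 2453 against 237 to 264 on D11 and 1663 to 2556 against 574 to 787 later.

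Ribosomal protein mRNA was lower in cells with STMN2. In D11 replicate A the share was 10.0% in detected and 11.7% in undetected cells. It was 11.0% and 12.6% for D11 replicate B, 8.38% and 10.2% in D28 replicate A, 6.04% and 7.42% in D28 replicate B, 5.59% and 6.62% in D45 replicate A, and 6.55% and 8.09% in D45 replicate B. Detected cells were lower in 6 of 6 libraries, with a mean ratio of 0.838 ± 0.0262 (SD). With 3 UMIs or more for a detected cell the difference was larger, with ratios of 0.686 to 0.739.

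The difference ran through nearly the whole set. Of 54 members, 51 were lower in detected cells and none was higher (24.5% and 15.2% of all genes tested), in edgeR's quasi-likelihood test with the library as a block. No member was higher at an unadjusted p under 0.05 or by DESeq2, which found 52 lower. The median was -0.34, against -0.05 over all genes, and all 46 subunit and stalk members were lower, between -0.45 and -0.21. The count was 51 whichever library was left out and 51 with 3 UMIs. Scaling by total UMIs also gave 51, with 4036 genes higher and 2817 lower in place of 2703 and 4349. Summed floor plate markers were higher in undetected cells of all 6 libraries, from 2065 against 1275 CPM in D11 replicate A to 290 against 241 CPM in D45 replicate A, as were astrocyte markers (40.8 to 631 against 31.1 to 436 CPM) and the mitochondrial share (1.78% to 2.67% against 1.73% to 2.21%). Mitotic markers were higher in undetected cells of D11 (1338 against 891 and 1171 against 872 CPM), D28 replicate A (323 against 241 CPM) and D45 replicate B (233 against 162 CPM) and lower in the other two libraries. Fibroblast markers were higher in undetected cells of all 6 libraries (11.2 to 1797 against 7.51 to 964 CPM). The part of these in the difference was not tested.

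The largest falls were those of RPL22L1 (-0.53 ± 0.03, adjusted p = 8.54e-05), RPL3 (-0.45 ± 0.03, adjusted p = 8.54e-05) and RPS27L (-0.42 ± 0.04, adjusted p = 0.000235). The 3 members that did not pass were all paralogs, RPL26L1 (log2 difference -0.000242 ± 0.04, adjusted p = 0.997), RPL7L1 (-0.10 ± 0.04, adjusted p = 0.0816) and RPL3L (0.39 ± 0.22, adjusted p = 0.192). Their values were seen before they were singled out.

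The direction depended on the depth of the cells. At 4000 UMIs or more, detected cells had the lower share in 6 of 6 libraries in each of 3 bins, with median ratios of 0.744, 0.790 and 0.852. At 2000 to under 4000 UMIs they were lower in 4 of 6. Below 2000 UMIs they were higher in 6 of 6, with median ratios of 1.05 under 1000 UMIs and 1.14 at 1000 to under 2000.

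**Figure D5:**
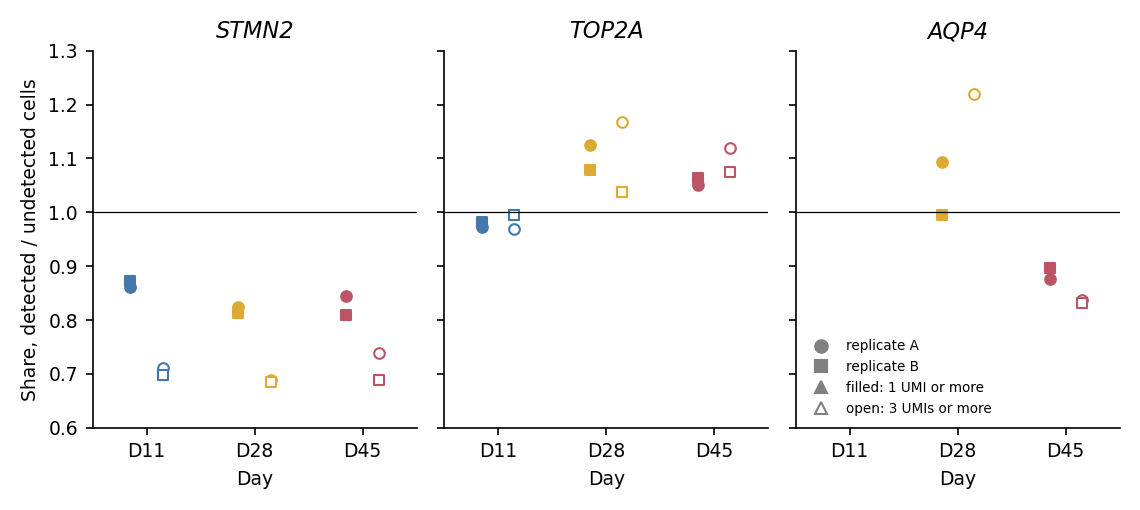
Ratio of the members' share of UMIs in cells with a UMI of STMN2, TOP2A or AQP4 to that in depth-matched cells without it, 1 point per library (circle for replicate A, square for B), filled for 1 UMI or more and open for 3 UMIs or more. All STMN2 points lie below 1, at 0.810 to 0.873 filled and 0.686 to 0.739 open, and the TOP2A points lie below 1 on D11 and above it on D28 and D45.

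D45 was also compared with D11 over all detected cells of a class. STMN2-detected cells were 72.0% and 68.5% of the D45 libraries and 26.8% and 33.4% of the D11 libraries, and cells with at least 3 TOP2A UMIs also held STMN2 on both days, so their comparison is not one within a cell type. In STMN2-detected cells, 24 of 54 members were lower on D45 than on D11 and none was higher (13% and 14.2% of all genes tested), with a median of -1.05 (0.05 over all genes). In TOP2A-detected cells 9 were lower and none higher (9.24% and 14.2%), with a median of -0.81 (0.02 over all genes). At an unadjusted p under 0.05 the counts were 44 and 27 lower and 0 higher, and DESeq2 gave 44 and 30 lower and 0 higher. In both classes the count of lower genes fell when a D11 or D45 library was left out, among the members and among all genes tested. Leaving out a D28 library raised it, again in both sets of genes. The median of the members in STMN2-detected cells was -1.17 and -0.93 without D11 replicate A or B. It was -0.89 and -1.20 there when D45 replicate A or B was dropped, and -1.05 when either D28 library was. In TOP2A-detected cells these medians were -0.94 and -0.73 for D11, -0.63 and -1.02 for D45, and -0.83 and -0.82 for D28.

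Other cell type markers moved with the day within both classes, as measured in their depth-matched cells. In STMN2-detected cells astrocyte markers summed to 32.9 and 31.1 CPM on D11 against 410 and 436 CPM on D45, and floor plate markers to 1275 and 1326 against 241 and 307 CPM. Mitotic markers summed to 891 and 872 against 224 and 162 CPM there, and fibroblast markers to 7.51 and 13.2 against 384 and 964 CPM. The neuron markers other than STMN2 summed to 2453 and 2191 against 1663 and 1841 CPM. In TOP2A-detected cells neural progenitor markers summed to 329 and 288 CPM on D11 against 1222 and 1045 CPM on D45, astrocyte markers to 43.3 and 40.3 against 522 and 564 CPM, and floor plate markers to 1582 and 1556 against 190.1 and 283 CPM. Their part in these results was not tested.

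In TOP2A-detected cells, some ribosomal protein genes were higher, by small amounts. The share in detected against undetected cells was 10.9% against 11.2% and 11.8% against 12.03% for D11, 9.94% against 8.83% and 6.88% against 6.37% for D28, and 6.46% against 6.14% and 7.87% against 7.41% for D45. It was higher in 4 of 6 libraries and lower in both of D11. Under 2000 UMIs and at 16000 UMIs or more it was higher in 6 of 6, and with STMN2-detected and AQP4-detected cells left out it was lower in 4 of 6. Of 54 members, 18 were higher and none was lower (18.7% and 16.5% of all genes tested), with a median of 0.11 (-0.0024 over all genes). At an unadjusted p under 0.05 they were 31 and 1, and DESeq2 gave 17 and 0.

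Small subunit genes made up 11 of the 18, with 3 of 22 large subunit genes, RPLP2, 2 paralogs and 1 readthrough locus. RPS9 (0.31 ± 0.08, adjusted p = 0.0162), RPL3 (0.29 ± 0.06, adjusted p = 0.00992) and RPS15 (0.24 ± 0.06, adjusted p = 0.0108), a protein of the small subunit head, rose most. Without D11 replicate B the count was 13, where 2097 of all 15742 genes tested were higher. Without D28 replicate A or B it was 6 and 6, where 2476 of 15949 and 2432 of 15832 genes were higher. Without D45 replicate A or B it was 9 and 7, where 2694 of 15787 and 2425 of 15515 genes were higher. With STMN2-detected and AQP4-detected cells left out it was 1 of 53, where 1798 of 12830 genes were higher. The median of the members was 0.06 without D28 replicate A and 0.0028 with those cells left out. Neuron markers summed to 689 and 789 CPM in detected against 2742 and 2988 CPM in undetected cells of D11, and to 1205 to 1579 against 2101 to 3512 CPM later. Neural progenitor markers were higher in detected cells of all 6 libraries (288 to 1222 against 179 to 865 CPM), as was the mitochondrial share (1.81% to 2.69% against 1.74% to 2.49%). Floor plate markers were lower in all 6 (190 to 1582 against 299 to 1927 CPM). Astrocyte markers were higher in all but D45 replicate A, with 215 against 97.8 and 222 against 118 CPM on D28. Fibroblast markers were higher on D28 (2069 against 814 and 171 against 127 CPM) and lower on D11 and D45. The part of all these in the result was not tested.

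In AQP4-detected cells the share was 10.1% against 9.25% in undetected cells of D28 replicate A, 6.63% against 6.66% in D28 replicate B, 5.58% against 6.37% in D45 replicate A and 6.80% against 7.59% in D45 replicate B. The D45 libraries were lower and D28 showed no common direction. The summed CPM of 4 other astrocyte markers was 238 to 1069 in detected and 137 to 267 in undetected cells. In all 4 libraries neuron markers were lower in detected cells (776 to 1380 against 1816 to 2995 CPM) and neural progenitor markers higher (996 to 1810 against 440 to 624 CPM), as was the mitochondrial share (2.39% to 2.90% against 1.91% to 2.37%). Mitotic markers were higher in detected cells of D28 (644 against 295 and 902 against 43.3 CPM) and lower in those of D45 (196 against 281 and 177 against 353 CPM). Fibroblast markers were likewise higher in detected cells of D28 (1255 against 960 and 342 against 116 CPM) and lower in those of D45 (217 against 688 and 600 against 2181 CPM). The part of these in the result was not tested. Only 2 of 53 members passed, both paralogs and both higher, RPL22L1 (0.54 ± 0.14, adjusted p = 0.0454) and RPS27L (0.33 ± 0.08, adjusted p = 0.041), where 8.53% of all genes tested were higher and 6.68% lower. Neither DESeq2 nor an unadjusted p under 0.05 found a member lower, and each found 3 higher. Without D28 replicate A, D45 replicate A or D45 replicate B the count was 0, where 1627 of 16613, 241 of 11838 and 269 of 11838 genes were higher. Without D28 replicate B it was 1, where 1437 of 16458 genes were higher.

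Other genes of the translation machinery, from lists set with earlier results of these data known, were tested in the same fits. Their counts stand beside 10.6% of all genes lower on D28, 17.4% lower on D45, 24.5% lower with STMN2 and 18.7% higher with TOP2A. Of 15 tested genes for elongation factors and other TOP mRNAs, 11 were lower on D28 and 13 on D45 than on D11, with D45 median -1.24, 14 were lower with STMN2, and 3 were higher and 2 lower with TOP2A. RACK1, a scaffold on the small subunit, had 2291 and 2394 CPM on D11 and 1141 and 1284 CPM on D45 (-1.36 ± 0.25, adjusted p = 0.00689). EEF1A1, EEF1A2 and FAU were not found by symbol and are not analysed here.

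Of 37 tested genes for ribosome assembly and rRNA synthesis, 6 were lower on D28 and 16 on D45 (median -0.53), 9 were lower with STMN2 and 15 were higher with TOP2A. Of 68 mitochondrial ribosomal protein genes, 6 were lower and 1 higher on D28, 39 lower and 1 higher on D45 (median -0.71), 32 lower and 1 higher with STMN2, and 30 higher and 1 lower with TOP2A. Initiation factors had 5 of 19 lower on D28 and 9 on D45 (median -0.48), 9 lower and 1 higher with STMN2, and 7 higher with TOP2A. Of 15 genes that control growth and translation, such as MTOR and LARP1, 1 was lower and 2 were higher on D28, 3 were lower and 1 was higher on D45 (median 0.02), 2 were lower with STMN2, and 5 were higher and 3 lower with TOP2A. Of the 8 ribosomal protein genes named through the reference table, 1 was lower on D28, 7 on D45 and 8 with STMN2, and 1 was higher with TOP2A.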

How the data were processed

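Single cells of 6 libraries (D11, D28 and D45, replicates A and B) were profiled with a droplet 3′ method. The authors made the deposited gene-by-cell counts with Cell Ranger 8.0.1 on Sscrofa11.1, one matrix of UMI counts per library and not normalised. Their notes also name Seurat 4.3.0. Cells with 200 to 7000 detected genes and at most 10% mitochondrial UMIs were kept. The 37 mitochondrial genes comprised 13 named rows and 24 unnamed ones, which were matched by RefSeq gene order. Doublets, called by simulated pairs (780 to 1888 per library), were removed only in an alternative.

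UMI counts were summed per library, or per library and detection class, since cells are not replicates. The sums were tested with edgeR 4.0.16 (R 4.3.3): TMM, filterByExpr and the quasi-likelihood test, with p-values adjusted by the method of Benjamini and Hochberg over all genes tested and called under 0.05. Classes of cells with and without a UMI of STMN2, TOP2A or AQP4 were matched in number and depth, at least 20 cells each, with the library as a block. Fold changes are log2 with SE. A share is the percentage of kept cells' UMIs, and its Wilson interval covers counting error only. Alternatives used DESeq2 1.42.0, other scalings, filters and classes, and each library left out. Scripts were tested on simulated data. There the test of D45 against D11 called 13% of genes changed by 1 on the log2 scale and 65% of those changed by 2. The test of the STMN2 classes called 4% of genes changed by 0.3 and 45% of those changed by 0.6. A gene that did not pass may therefore still have changed. Sequences came from RefSeq through Python 3.11.15.

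The named genes were the 3 members with the largest called change in each direction of each whole-library or detection comparison, the 3 with the most and the fewest UMIs, the tested paralogs and their partners, RPLP0, RPLP2, RPSA, RPS6, RPL5, RPL11, and 5 neighbours of the set. Members and lists were chosen with earlier results of these data known. The filter on 13 mitochondrial genes and the share widened by 8 genes were alternatives added after seeing the data. Some genes that this rule names are not reported here.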

Additional observations from a re-analysis of the deposited data

Results flagged for a closer look

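The share of ribosomal protein UMIs in TOP2A-detected cells, divided by that in depth-matched undetected cells, moved in opposite directions between days. It was 0.972 and 0.983 on D11, below 1 in both libraries, and 1.13 and 1.08 on D28 and 1.05 and 1.06 on D45, above 1 in all 4. With cells holding a UMI of STMN2 or AQP4 left out, D28 replicate B was at 0.993 and D45 replicate B at 0.997, so only 2 of the 4 later libraries were above 1. Under 2000 UMIs, and at 16000 UMIs or more, the ratio was above 1 in 6 of 6 libraries, D11 included. The difference between the days was not tested.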

How the results depend on the processing

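Counts are of members past the threshold. When a library was left out of a day comparison, the count over all genes tested moved as well. With 2 libraries a day, the day comparisons depended on single libraries: leaving out 1 library in turn gave 0 to 45 lower and 0 to 2 higher on D28 against D11, 2 to 51 lower on D45 against D11, 0 to 27 lower and 0 to 1 higher on D45 against D28, 1 to 48 lower on D45 in STMN2-detected and 0 to 43 in TOP2A-detected cells. For the classes it gave 51 lower with STMN2, 6 to 17 higher and 0 to 1 lower with TOP2A, and 0 to 1 higher with AQP4. The 1 member lower on D45 against D28 became 4 with DESeq2 and 0 with doublets removed, with DESeq2 size factors, with no filter on low counts, with scaling without member and mitochondrial genes and by total UMIs. In STMN2-detected cells 44 (DESeq2) and 40 (cells thinned to 1000 UMIs) were lower on D45 in place of 24. In TOP2A-detected cells 30 were lower with DESeq2 and 1 with cells holding a UMI of the other 2 genes left out. The 2 members higher with AQP4 became 0 with 3 UMIs, with doublets removed, with cells holding the other genes left out and by total UMIs, 1 with DESeq2 size factors or no filter, and 5 without matching on depth. The 18 higher with TOP2A became 1 with cells holding the other genes left out, where 1798 of 12830 genes tested were higher. Without matching they became 8, where 3202 of 19978 genes were higher, and by total UMIs 1 was lower. Counting the 8 further genes gave shares of 14.5%, 9.35% and 8.05% for D11, D28 and D45, and for D45 the share was 5.62% after thinning and 4.49% as the median over cells. The causes were not tested.

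Neither the labels nor the paper says whether a replicate letter pairs libraries across days. The deviations of same-lettered libraries correlated at -0.55 (D11 and D28), 0.20 (D11 and D45) and -0.35 (D28 and D45) over 22192 genes. With 2 libraries a day, these values cannot show whether the letters pair them. With the letter as a replicate block, 6 of 54 members were lower on D28 and 23 on D45 against D11, 0 on D45 against D28, 8 in STMN2-detected and 1 in TOP2A-detected cells. In the whole-library fits 1451, 2813 and 295 of all 22192 genes tested were lower, in the same order. In STMN2-detected cells 1835 of 21391 genes were lower, and in TOP2A-detected cells 699 of 16624.

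The STMN2 difference of RPL26L1, -0.000242 on the log2 scale, was above 0 with total UMIs (0.0885), scaling without member and mitochondrial genes (0.00620), no filter (0.00735), without D11 replicate A (0.0115), D11 replicate B (0.0103), D28 replicate B (0.0340), D45 replicate A (2.62e-05) or D45 replicate B (0.00315), without cells under 1000 UMIs (0.000273), without doublets (0.00914), with 13 mitochondrial genes (0.00973), with 3 UMIs (0.0555), without cells holding the other genes (0.00709) and without matching (0.0284), and it was -0.0159 without D28 replicate A.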
